A study of Mus musculus with 16 samples.

Results

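C2C12 cells, a mouse myoblast line, carrying an empty vector (EV) were compared between differentiation medium (DM) and growth medium (GM). Lines labelled MYOD-/- and lines labelled WT were used, and the genes whose response to the medium differed between these genotype labels were sought. The groups compared hold 8 of the 16 libraries of the series. All 16 entered the fit that set the filter, scaling and spread. The groups, with 2 libraries each, were knockout-labelled EV cells in DM, knockout-labelled EV cells in GM, WT-labelled EV cells in DM and WT-labelled EV cells in GM. The other 8 libraries came from the same genotype labels and media with a vector for spliced MUNC, a noncoding RNA transcribed upstream of Myod1, and serve here as a second set in which the same difference was measured. Per the series' own text, MYOD-/- cells came from CRISPR-Cas9 editing, a screen of single cells and a check of the deletion, after which they received either vector, while WT cells were transfected stably. GM cells are described as proliferating and DM cells as differentiating (DM3), all cells are labelled as skeletal muscle of a C57BL/6 background, and every library was made from poly(A) RNA. Not stated there are the number of clones, the part of Myod1 deleted and whether the 2 libraries of a group came from separate cultures. The p-values therefore cover the spread among the 16 libraries alone, which may be technical. A gene was called when its difference of responses, (DM minus GM in knockout-labelled cells) minus (DM minus GM in WT-labelled cells) on the log2 scale, passed edgeR's quasi-likelihood test with a Benjamini-Hochberg adjusted p under 0.05 over all 14972 genes tested. A call is "higher" below when this difference was positive and "lower" when it was negative, differences are given ± SE, and levels are CPM after TMM scaling of the libraries, which are not per length and are compared only within a gene.

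In the textbook course of myogenesis, serum withdrawal takes myoblasts out of the cell cycle, myogenin follows the determination factors MYOD and MYF5, and genes for the sarcomere, calcium release and fusion are switched on. Both factors bind E-boxes as partners of E proteins. Serum response factor, which binds CArG boxes, drives the muscle actins together with the cytoskeletal genes of smooth muscle, many of them at the command of actin polymerisation. The interaction tested here asks which of these programmes responded differently to the medium under the 2 genotype labels.

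The gene named in the genotype label went against it. Myod1 was at 24.4 and 33.1 CPM in knockout-labelled DM libraries and 13.9 and 11.9 CPM in knockout-labelled GM libraries, against 0.143 and 0.0136 CPM in WT-labelled DM libraries and 0.291 and 0.0191 CPM in WT-labelled GM libraries. The WT-labelled values rest on 13, 1, 18 and 1 counts. All knockout-labelled EV libraries thus stood above all WT-labelled ones, so the libraries are called knockout-labelled and WT-labelled throughout, and every direction below is a direction between labels. Its difference of responses did not pass (2.11 ± 1.10, adjusted p = 0.357), and without WT-labelled GM replicate 1 it was -0.86. Of the markers of the labelled cell type, Myf5, the determination factor related to MYOD, lay between 78.9 and 153 CPM in every EV library, while Des, desmin, lay between 6.09 and 43.2 CPM. Cdh15, the cadherin of myogenic cells, was at 94.3 and 121 CPM in knockout-labelled DM and 85.7 and 4.54 CPM in knockout-labelled GM, against 60.1 and 25.8 CPM in WT-labelled DM and 88.5 and 13.8 CPM in WT-labelled GM. The 6 fibroblast markers summed to 2840 and 1900 CPM in knockout-labelled DM and 768 and 99.3 CPM in knockout-labelled GM, against 1410 and 952 CPM in WT-labelled DM and 1650 and 522 CPM in WT-labelled GM. None of the 4 tested was called, all 4 had a positive difference (median 2.28) and Tcf21 was at 0. No adipocyte, epithelial or endothelial marker was called either, of 3 tested in each list, and Emcn and Epcam were at 0. The epithelial markers summed to 1.15 and 1.46 CPM in knockout-labelled DM and 0.669 and 0.451 CPM in knockout-labelled GM, against 17.6 and 12.6 CPM in WT-labelled DM and 2.18 and 0.82 CPM in WT-labelled GM. MUNC itself (Gm45923) was at 12.4 and 2.23 CPM in knockout-labelled DM libraries and 12.4 and 1.30 CPM in knockout-labelled GM libraries, against 8.95 and 1.15 CPM in WT-labelled DM libraries and 11.0 and 1.49 CPM in WT-labelled GM libraries, so it followed the replicate number. Zrsr1 took 0.00792% to 0.0126% of the counts in the replicate 1 EV libraries and 2.69% to 13% in the replicate 2 EV libraries. Total estimated counts were 49.9 M and 58.8 M in knockout-labelled DM, 35.8 M and 45.2 M in knockout-labelled GM, 83.9 M and 74.1 M in WT-labelled DM and 62.7 M and 53 M in WT-labelled GM. Of the variance of log2 CPM over the EV libraries, 48.7% lay on an axis that parted DM from GM and 34.3% on one that parted the genotype labels.

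The responses to the medium correlated between the labels, and their difference passed for a minority of genes. A gene that did not pass is not thereby shown to respond alike. Of 14972 genes, 6470 changed with DM in knockout-labelled cells (43.2%) and 5619 in WT-labelled cells (37.5%), the first count being 4290 without knockout-labelled GM replicate 2, and the 2 sets of log2 changes correlated at 0.689 across genes, which is a description since genes are not independent replicates. The difference of responses passed for 387 genes (2.58%), higher for 249 (1.66%) and lower for 138 (0.922%). With the replicate number as a block 898 genes passed, 571 higher and 327 lower, all 387 among them. The median difference over all genes tested was 0.02. Among the 387 were 368 protein-coding genes and 15 long noncoding RNAs, and 294 had a mean of at least 5 CPM over the EV libraries. Their own responses passed under both labels for 135, of which 73 moved in opposite directions, under the knockout label alone for 169, under the WT label alone for 83 and under neither for 0. Sorted by size at a log2 response of 1, 27 higher and 13 lower genes moved past it in opposite directions, 97 higher and 32 lower genes did so only under the knockout label, and 40 higher and 36 lower genes only under the WT label. A further 20 higher and 21 lower genes moved the same way past it under both labels, and 65 higher and 36 lower genes stayed within it under both.

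**Figure D1:**
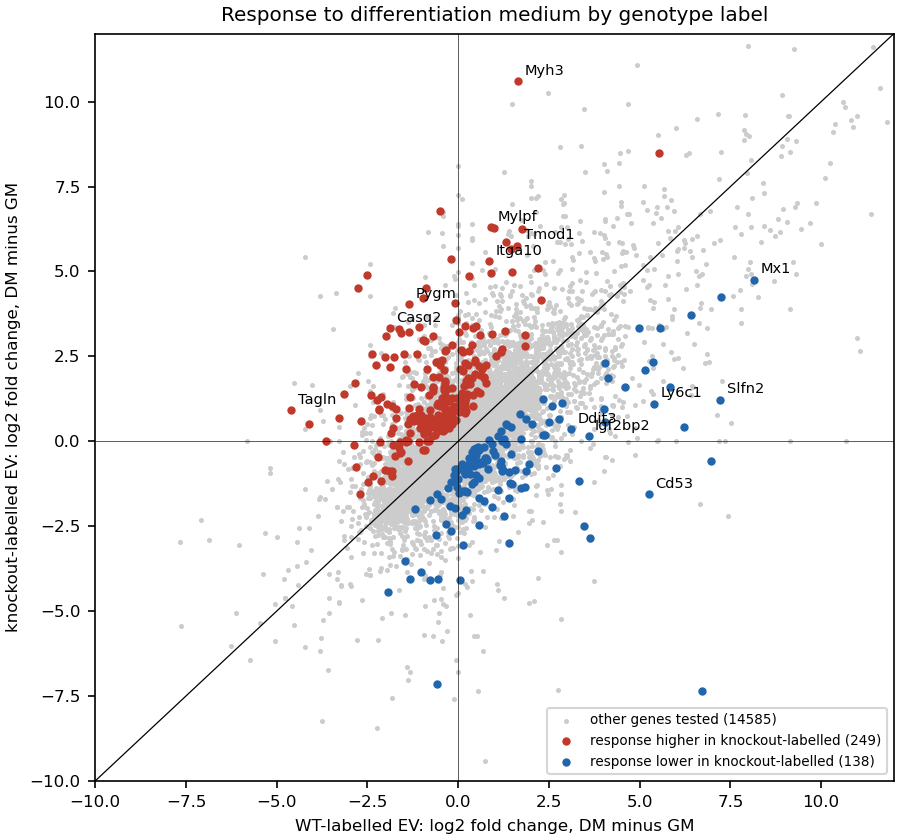
Log2 fold change of DM over GM in knockout-labelled EV cells (vertical axis) against the same in WT-labelled EV cells (horizontal axis), one point per gene tested. Red points mark the 249 genes called higher, blue points the 138 called lower and grey points the genes not called, and the diagonal line marks equal responses; 5 genes lie outside the axes.

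The number of calls and their split into higher and lower changed with the method and with the library left out. No call among the 387 changed direction when an EV library was left out. DESeq2 called 500 higher and 480 lower, a more even split than the 249 and 138 above. A fit of the 8 EV libraries alone called 160 genes, 148 of them among the 387. Without knockout-labelled DM replicate 1 the count fell to 57 and without knockout-labelled DM replicate 2 to 96. It was 251 without knockout-labelled GM replicate 1 and 90 without knockout-labelled GM replicate 2. Without WT-labelled DM replicate 1 it was 333, with more lower (181) than higher (152), and without WT-labelled DM replicate 2 it was 62. Leaving out WT-labelled GM replicate 1 gave 204 and leaving out WT-labelled GM replicate 2 gave 73. Of the 387 calls, 40 were kept whichever EV library was left out, 28 of them higher and 12 lower, and these are called the 40 genes below. The genes described first in each group below are mostly of these 40. For others described, the libraries without which the call was lost are named. Leaving out a library leaves its group with 1 and weakens the test. A lost call thus does not show that 1 library carried the difference.

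**Figure D2:**
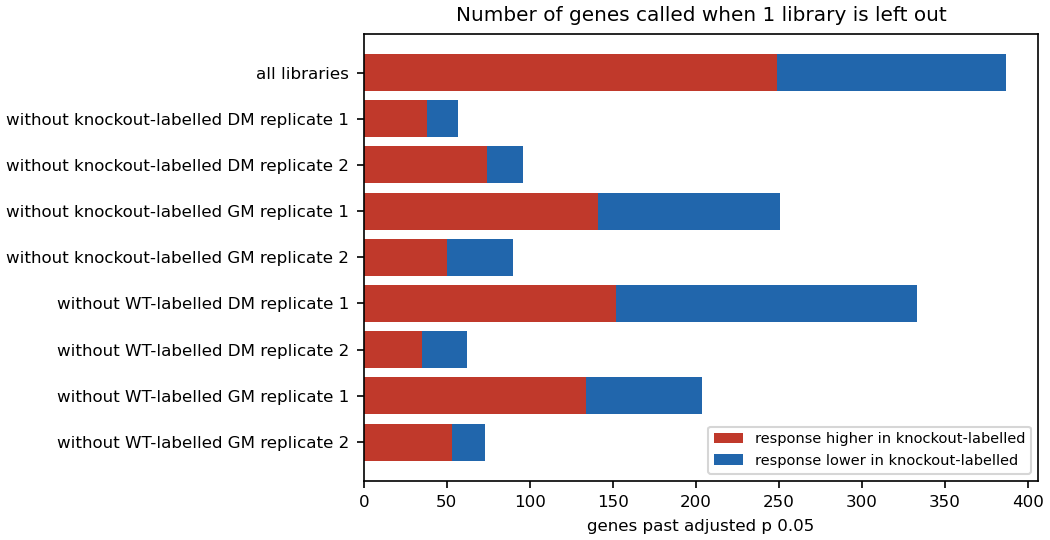
Number of genes whose difference of responses passed an adjusted p of 0.05 with all libraries and with each EV library left out in turn, higher calls in red and lower calls in blue. The count was 387 with all libraries and lay between 57 (without knockout-labelled DM replicate 1) and 333 (without WT-labelled DM replicate 1).

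The called genes differed between the labels mainly in DM. Taking a gap of at least 1 on the log2 scale between knockout-labelled and WT-labelled means as present, 220 of the 387 (56.8%) had it in DM alone, 144 of them higher and 76 lower, against 12.5% of all genes tested. It was present in GM alone for 20 (5.17%, against 4% of all genes), in both media in the same direction for 31 (8.01%, against 7.99%), and in both in opposite directions for 23 (5.94%, against 0.548%). For 93 (24%, against 75% of all genes) it was under 1 in both media. These gaps are made of the same values as the test and describe the calls only.

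Genes of the sarcomere made up the group with the largest median difference among the 20 gene lists that are not cell type markers. Of the marker lists, the neural one, with 2 genes tested, had a median of 3.26. Of 43 tested, 11 were higher and none lower (25.6%, against 2.58% of all genes), and 41 of 43 had a positive difference, with a median of 3.18. The median response was 4.52 in knockout-labelled cells and 0.80 in WT-labelled cells. Under the knockout label 34 of the 43 rose in DM (23.5% of all genes did) and none fell, while under the WT label 8 rose (19.2% of all genes) and 2 fell. The list held 8 calls without WT-labelled DM replicate 1 and 6 or 7 without any other EV library. The summed fibroblast markers given above were also highest in knockout-labelled DM, and their part in the result was not tested. Col1a1 and Dcn made up most of the sums in DM. Pdgfra was higher in WT-labelled DM (7.95 and 9.46 CPM) than in knockout-labelled DM (6.98 and 4.96 CPM). Among these markers Lum, the matrix proteoglycan lumican, not called and picked after its values were seen, was at 201 and 55.5 CPM in knockout-labelled DM and 0.187 and 0.0251 CPM in knockout-labelled GM, against 1.27 and 0.136 CPM in WT-labelled DM and 0.243 and 0 CPM in WT-labelled GM.

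Mylpf, the regulatory myosin light chain of fast skeletal muscle (chr7:127208848-127214288, GRCm38.p6), was at 62.4 and 71.0 CPM in knockout-labelled DM libraries and 1.10 and 0.601 CPM in knockout-labelled GM libraries, against 1.83 and 1.45 CPM in WT-labelled DM libraries and 0.938 and 0.801 CPM in WT-labelled GM libraries. Both knockout-labelled DM libraries stood far above all other EV libraries, which overlapped with one another only between the GM groups. Its response was 6.30 ± 0.39 in knockout-labelled cells and 0.92 ± 0.34 in WT-labelled cells, a difference of 5.38 ± 0.50 (adjusted p = 0.000956). Neb, nebulin, the ruler of the thin filament, was at 15.3 and 13.6 CPM in knockout-labelled DM and 0.375 and 0.326 CPM in knockout-labelled GM, against 0.526 and 0.231 CPM in WT-labelled DM and 0.356 and 0.534 CPM in WT-labelled GM, with a difference of 5.57 ± 0.69 (adjusted p = 0.00404). The WT-labelled media overlapped for Neb. Tmod1, tropomodulin, which caps the thin filament's pointed end, was at 53.7 and 38.0 CPM in knockout-labelled DM and 0.990 and 0.702 CPM in knockout-labelled GM, against 0.844 and 0.774 CPM in WT-labelled DM and 0.307 and 0.210 CPM in WT-labelled GM. It rose under both labels (5.76 ± 0.36 in knockout-labelled and 1.63 ± 0.38 in WT-labelled cells), and the difference of 4.13 ± 0.53 passed (adjusted p = 0.00469). Myl4, a myosin light chain of embryonic muscle and atrium, rose in knockout-labelled cells (2.94 ± 0.28) and fell in WT-labelled cells (-0.93 ± 0.27), a difference of 3.87 ± 0.39 (adjusted p = 0.00135). Its values were 13.2 and 10.2 CPM in knockout-labelled DM and 1.77 and 1.28 CPM in knockout-labelled GM, against 0.987 and 0.923 CPM in WT-labelled DM and 1.71 and 1.93 CPM in WT-labelled GM. Myom1, the M-band protein myomesin, belongs to the 40 genes and was picked after its values were seen. It was at 10.5 and 10.1 CPM in knockout-labelled DM and 0.321 and 0.326 CPM in knockout-labelled GM, against 0.724 and 0.733 CPM in WT-labelled DM and 0.291 and 0.229 CPM in WT-labelled GM. The difference was 3.51 ± 0.47 (adjusted p = 0.00512).

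The largest difference among the called sarcomere genes was that of Myh3, a myosin heavy chain of the embryo, at 8.94 ± 1.21 (adjusted p = 0.00521). It was at 208 and 238 CPM in knockout-labelled DM libraries and 0.134 and 0.150 CPM in knockout-labelled GM libraries, against 0.932 and 0.543 CPM in WT-labelled DM libraries and 0.275 and 0.191 CPM in WT-labelled GM libraries. Its call was lost without WT-labelled GM replicate 1 (adjusted p = 0.052). Acta1, skeletal muscle actin, was at 125 and 119 CPM in knockout-labelled DM and 2.01 and 8.60 CPM in knockout-labelled GM, against 1.24 and 0.204 CPM in WT-labelled DM and 5.26 and 4.88 CPM in WT-labelled GM, so that in DM the labels stood apart and in GM they overlapped. Its difference was 7.30 ± 1.49 (adjusted p = 0.0298), and the call was kept without WT-labelled DM replicate 1 and lost without any other EV library (adjusted p from 0.0649 to 0.122). Actc1, cardiac actin, had a difference of 5.63 ± 1.67 that did not pass (adjusted p = 0.11), with 54.7 and 87.1 CPM in knockout-labelled DM and 0.910 and 1.30 CPM in knockout-labelled GM, against 0.439 and 0.0543 CPM in WT-labelled DM and 0.275 and 0.114 CPM in WT-labelled GM. The muscle actins are close paralogs, and fragments that fit several of them were divided by kallisto. Ckm, muscle creatine kinase, had a difference of 4.01 ± 1.92 (adjusted p = 0.31). Myh8, the perinatal myosin heavy chain, was left out of the test by the filter on low counts, with 0 to 6 counts per EV library.

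**Figure D3:**
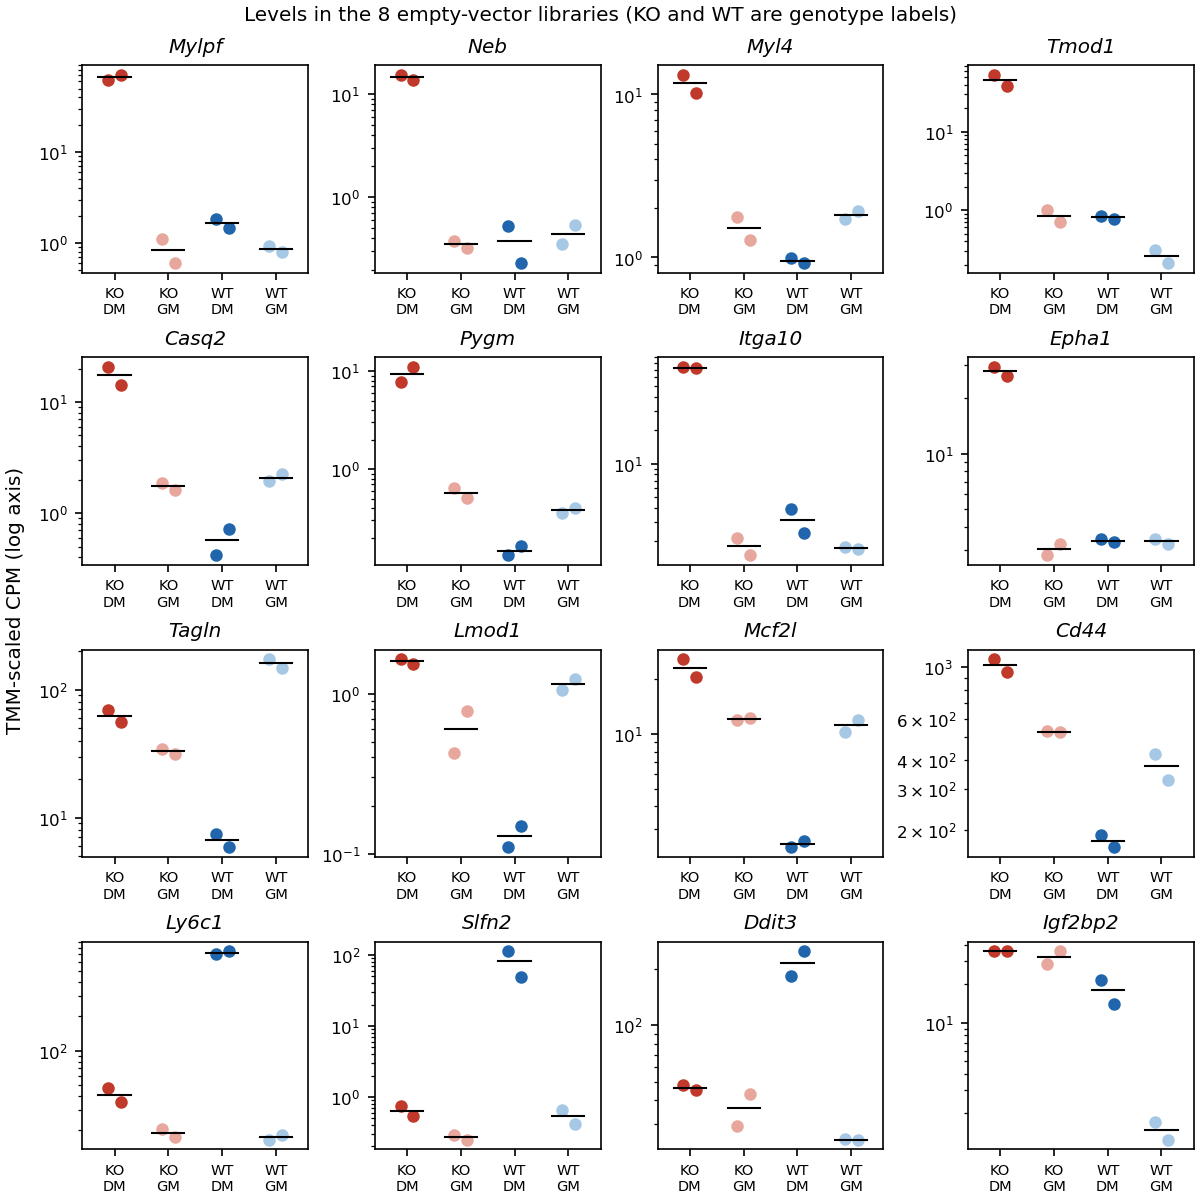
Levels (TMM-scaled CPM, log axis with its own range in each panel) of 16 called genes in the 8 EV libraries, in the order knockout-labelled DM, knockout-labelled GM, WT-labelled DM and WT-labelled GM; each dot is a library and each bar the mean of 2. The first 8 genes, such as Mylpf at 62.4 and 71.0 CPM, are high in knockout-labelled DM alone, Tagln to Cd44 are low in WT-labelled DM, Ly6c1 to Ddit3 are high in WT-labelled DM, and Igf2bp2 is low in WT-labelled GM.

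Calcium handling and glycogen use were represented by fewer calls. The share called among all genes tested was 2.58%. Of 31 tested genes for excitation-contraction coupling or the neuromuscular junction, 4 were higher and none lower (12.9%), with a median difference of 0.49; the list held 4 calls without WT-labelled DM replicate 1 or knockout-labelled GM replicate 1, 2 without WT-labelled GM replicate 2 and 1 without any other EV library. Casq2, the calcium store protein calsequestrin, was at 20.8 and 14.4 CPM in knockout-labelled DM libraries and 1.85 and 1.63 CPM in knockout-labelled GM libraries, against 0.417 and 0.719 CPM in WT-labelled DM libraries and 1.94 and 2.23 CPM in WT-labelled GM libraries. It rose in knockout-labelled cells (3.34 ± 0.50) and fell in WT-labelled cells (-1.88 ± 0.50), a difference of 5.22 ± 0.70 (adjusted p = 0.00512). Ryr1, the calcium release channel of the sarcoplasmic reticulum, rose under both labels, with 19.1 and 22.2 CPM in knockout-labelled DM and 0.616 and 0.576 CPM in knockout-labelled GM, against 1.12 and 0.977 CPM in WT-labelled DM and 0.226 and 0.229 CPM in WT-labelled GM. Its difference was 2.92 ± 0.51 (adjusted p = 0.0178) and was lost (adjusted p from 0.0594 to 0.0767) without any EV library other than WT-labelled DM replicate 1 and knockout-labelled GM replicate 1. Pygm, muscle glycogen phosphorylase (chr19:6384408-6398464), was the 1 call among 21 genes of muscle metabolism (4.76%; 2 with the replicate as a block), whose median difference was 0.10. It was at 7.73 and 11.1 CPM in knockout-labelled DM and 0.642 and 0.501 CPM in knockout-labelled GM, against 0.132 and 0.163 CPM in WT-labelled DM and 0.356 and 0.400 CPM in WT-labelled GM. The difference for Pygm was 5.40 ± 0.49 (adjusted p = 0.000956), with a rise under the knockout label and a fall under the WT label.

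The regulators and fusion genes upstream of and beside this programme did not pass. None of 18 myogenic regulators and none of 24 genes of fusion and membrane repair was called, against 2.58% of all genes. Their median differences were 0.31 and 0.70. Calls with the replicate as a block were not counted for these lists. Myog, myogenin, rose under both labels, by 6.69 ± 0.70 in knockout-labelled cells and 4.69 ± 0.88 in WT-labelled cells. It was at 22.0 and 24.2 CPM in knockout-labelled DM and 0.321 and 0.125 CPM in knockout-labelled GM, against 1.16 and 0.733 CPM in WT-labelled DM and 0.0485 and 0.0191 CPM in WT-labelled GM. The difference was 2.0 ± 1.55 (adjusted p = 0.559). Both knockout-labelled DM libraries thus stood above both WT-labelled DM libraries, while the difference of fold responses had a wide error. Mymk, the fusion protein myomaker, was at 20.3 and 19.1 CPM in knockout-labelled DM and 0.964 and 0.251 CPM in knockout-labelled GM, against 0.230 and 0.136 CPM in WT-labelled DM and 0 CPM in both WT-labelled GM libraries, so no fold response can be given for the WT label. Mymx, myomixer, was at 4.29 and 4.26 CPM in knockout-labelled DM and 0 CPM in both knockout-labelled GM libraries, against 0.515 and 0.122 CPM in WT-labelled DM and 0.0162 and 0 CPM in WT-labelled GM. Myf5 (-0.34 ± 0.34, adjusted p = 0.671) and Myf6 (0.23 ± 0.65, adjusted p = 0.907) had differences within their error, and Mef2c had 0 to 4 counts per EV library and was not tested.

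Smooth muscle genes and targets of serum response factor parted, by their median responses, more by a fall in WT-labelled DM than by a rise in knockout-labelled DM. All 31 tested had a positive difference (median 1.17), and 9 were higher and none lower (29%, against 2.58% of all genes). Under the WT label 18 fell in DM (18.3% of all genes did) and none rose (19.2% of all genes did), with a median response of -0.92. Under the knockout label 10 rose (23.5% of all genes did) and 3 fell (19.7%), with a median of 0.36. Of the called genes, Zyx, Lmod1 and Acta2 rose under the knockout label, while the responses of Tagln, Actg2 and Ccn2 did not pass there. The 9 calls became 6 without WT-labelled DM replicate 1, 5 without WT-labelled GM replicate 1, 3 without either knockout-labelled GM library and 2 without any of the other 4 EV libraries. Tagln, the actin-binding protein transgelin (chr9:45929628-45936058), was at 69.1 and 56.0 CPM in knockout-labelled DM libraries and 34.4 and 31.6 CPM in knockout-labelled GM libraries, against 7.41 and 5.85 CPM in WT-labelled DM libraries and 174 and 148 CPM in WT-labelled GM libraries. WT-labelled cells thus held the highest values in GM and the lowest in DM. Their response was -4.60 ± 0.43, that of knockout-labelled cells 0.92 ± 0.37 (adjusted p = 0.0661), and the difference 5.52 ± 0.56 (adjusted p = 0.00136). Lmod1, leiomodin, which nucleates actin filaments, was at 1.65 and 1.53 CPM in knockout-labelled DM and 0.428 and 0.777 CPM in knockout-labelled GM, against 0.110 and 0.149 CPM in WT-labelled DM and 1.05 and 1.24 CPM in WT-labelled GM. The Lmod1 difference was 4.53 ± 0.61 (adjusted p = 0.00512). The 6 smooth muscle markers, 2 of them called (Tagln and Acta2), summed to 2080 and 2270 CPM in knockout-labelled DM and 992 and 831 CPM in knockout-labelled GM, against 375 and 284 CPM in WT-labelled DM and 1620 and 1700 CPM in WT-labelled GM. Acta2 made up most of each sum. Under the WT label 4 of the 6 fell in DM. Mylk, however, was at 11.0 and 9.93 CPM in WT-labelled DM, against 4.11 and 2.78 CPM in WT-labelled GM. Myh11 was at 0.232 CPM or less in every EV library. In such bulk libraries fewer cells of a type and less RNA per cell cannot be told apart.

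Acta2, smooth muscle actin, was at 1918 and 2125 CPM in knockout-labelled DM and 881 and 696 CPM in knockout-labelled GM, against 318 and 219 CPM in WT-labelled DM and 1371 and 1451 CPM in WT-labelled GM. It rose in knockout-labelled cells (1.36 ± 0.50) and fell in WT-labelled cells (-2.39 ± 0.51), a difference of 3.75 ± 0.71 (adjusted p = 0.0224). Actg2, enteric smooth muscle actin, was at 47.3 and 44.2 CPM in knockout-labelled DM and 48.7 and 42.4 CPM in knockout-labelled GM, against 6.31 and 4.49 CPM in WT-labelled DM and 78.1 and 55.8 CPM in WT-labelled GM. The Actg2 difference was 3.64 ± 0.68 (adjusted p = 0.0214). Both calls were kept without WT-labelled DM replicate 1 and lost without any other EV library (adjusted p from 0.0532 to 0.106 for Acta2 and from 0.0528 to 0.099 for Actg2). Ccn2, a matricellular protein induced by serum and by TGF-beta, was at 227 and 190 CPM in knockout-labelled DM and 64.3 and 227 CPM in knockout-labelled GM, against 33.6 and 23.1 CPM in WT-labelled DM and 283 and 699 CPM in WT-labelled GM. Its GM libraries of both labels were spread widely, and its difference of 4.63 ± 1.01 (adjusted p = 0.039) was kept without WT-labelled GM replicate 1 and lost without any other EV library (adjusted p from 0.0526 to 0.16). Zyx, zyxin of focal adhesions, rose in knockout-labelled cells (1.37 ± 0.21) with a difference of 1.75 ± 0.29 (adjusted p = 0.0148), which was lost (adjusted p from 0.054 to 0.0781) without WT-labelled GM replicate 2, WT-labelled DM replicate 2 or either knockout-labelled DM library.

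The promoters of called genes were searched for 6 motifs within the 250 bases before the first start listed, on both strands, in the promoter sequences of RefSeq for GRCm38.p6, which held 195 of the 249 higher genes, 107 of the 138 lower genes and 11722 of the genes tested. The CArG box, the site of serum response factor, was found in 8 higher genes (4.1%) and 1 lower gene (0.935%), against 1.24% of all genes tested and 1.4% of all 27025 promoters. The E-box CAGCTG, which reads the same on both strands, was found in 34 higher genes (17.4%) and 16 lower genes (15%), against 12% of genes tested and 12.8% of all promoters. The general E-box CANNTG, which includes CAGCTG, went the other way, in 54.4% of higher and 57% of lower genes, against 58% of genes tested and 66% of all promoters. The MEF2 site was found in 4.1% of higher and 2.8% of lower genes, against 1.64% of genes tested. TATAAA was found in 7.69% of higher and 11.2% of lower genes, against 7.36%. The interferon-stimulated response element was found in 2.05% of higher and 2.8% of lower genes, against 2.7%. In the 33 tested sarcomere genes with a promoter the shares were 36.4% for CAGCTG, 81.8% for CANNTG, 15.2% for the MEF2 site and 12.1% for the CArG box. In the 24 tested smooth muscle and serum response genes with a promoter they were 12.5%, 50%, 8.33% and 20.8%. No test was run on these shares, and a match describes letters, not binding. For the higher genes with a CArG box, the muscle and focal adhesion genes Acta1, Fhl1, Vcl and Myom1 are shown with the box in capitals. Fhl1, Vcl and Myom1 were picked after their values were seen. The windows are chr8:123894776-123895025 on the minus strand, chrX:56779433-56779682, chr14:20929148-20929397 and chr17:71019307-71019556 on the plus strand, each read 5′ to 3′ toward the gene.
Acta1: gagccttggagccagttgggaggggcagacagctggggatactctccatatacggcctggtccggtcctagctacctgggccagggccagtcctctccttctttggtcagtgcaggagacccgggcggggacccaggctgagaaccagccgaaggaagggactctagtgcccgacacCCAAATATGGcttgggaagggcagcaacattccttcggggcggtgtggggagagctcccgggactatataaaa
Fhl1: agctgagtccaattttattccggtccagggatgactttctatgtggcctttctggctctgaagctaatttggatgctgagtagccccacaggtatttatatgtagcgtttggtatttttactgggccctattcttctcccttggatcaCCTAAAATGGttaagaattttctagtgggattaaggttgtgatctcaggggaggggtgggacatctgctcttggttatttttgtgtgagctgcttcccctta
Vcl: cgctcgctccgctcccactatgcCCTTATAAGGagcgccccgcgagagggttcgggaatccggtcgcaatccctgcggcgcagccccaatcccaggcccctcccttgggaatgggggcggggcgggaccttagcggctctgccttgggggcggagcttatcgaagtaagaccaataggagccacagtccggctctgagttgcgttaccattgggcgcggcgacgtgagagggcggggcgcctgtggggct
Myom1: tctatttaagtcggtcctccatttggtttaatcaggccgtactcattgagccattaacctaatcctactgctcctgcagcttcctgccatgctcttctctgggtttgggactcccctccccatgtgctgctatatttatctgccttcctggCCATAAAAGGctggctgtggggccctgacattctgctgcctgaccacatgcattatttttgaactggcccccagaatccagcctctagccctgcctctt
The box lay 73 to 64 bases before the annotated start of Acta1, 102 to 93 before that of Fhl1, 227 to 218 before that of Vcl and 99 to 90 before that of Myom1. Acta1 also held CAGCTG at 221 to 216 bases before its start, left in lower case here.

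Fhl1, a LIM protein of muscle, was at 592 and 622 CPM in knockout-labelled DM and 324 and 271 CPM in knockout-labelled GM, against 120 and 87.1 CPM in WT-labelled DM and 365 and 367 CPM in WT-labelled GM, a difference of 2.85 ± 0.61 (adjusted p = 0.0372). Vcl, vinculin, which ties actin to focal adhesions, was at 739 and 750 CPM in knockout-labelled DM and 518 and 687 CPM in knockout-labelled GM, against 471 and 453 CPM in WT-labelled DM and 738 and 944 CPM in WT-labelled GM. The Vcl difference was 1.17 ± 0.27 (adjusted p = 0.0492). Of the carriers shown, Myom1 alone belongs to the 40 genes. The calls of Fhl1 and Vcl were lost without any 1 of the 8 EV libraries (adjusted p from 0.0652 to 0.151 for Fhl1 and from 0.0584 to 0.191 for Vcl). The E-box is shown for Mylpf (chr7:127211358-127211607, plus strand) and Pygm (chr19:6384158-6384407, plus strand), which were among the genes with the smallest adjusted p of the test, with CAGCTG in capitals.
Mylpf: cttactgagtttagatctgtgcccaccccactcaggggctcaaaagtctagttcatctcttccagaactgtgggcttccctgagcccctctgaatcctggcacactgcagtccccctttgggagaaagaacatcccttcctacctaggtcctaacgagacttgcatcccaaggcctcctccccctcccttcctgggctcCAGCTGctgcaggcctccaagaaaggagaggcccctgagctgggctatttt
Pygm: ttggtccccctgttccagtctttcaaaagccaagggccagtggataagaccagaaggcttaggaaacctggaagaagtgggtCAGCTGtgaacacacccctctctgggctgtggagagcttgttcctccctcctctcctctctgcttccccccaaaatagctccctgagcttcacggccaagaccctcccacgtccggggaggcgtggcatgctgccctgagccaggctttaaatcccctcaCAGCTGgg
In Mylpf it lay 51 to 46 bases before the start in the RefSeq promoter table and not before the left end of the gene interval given above, which lies farther upstream. In Pygm it occurred at 168 to 163 and at 8 to 3 bases before the start.

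Further higher genes lay outside the muscle lists. For comparison with the list share below, 2.58% of all genes tested were called. Itga10, a collagen-binding integrin chain, was at 74.2 and 71.7 CPM in knockout-labelled DM libraries and 2.17 and 1.5 CPM in knockout-labelled GM libraries, against 3.90 and 2.37 CPM in WT-labelled DM libraries and 1.79 and 1.70 CPM in WT-labelled GM libraries. The Itga10 difference was 4.47 ± 0.53 (adjusted p = 0.00353). Among 19 genes of satellite and reserve cells 2 were higher (Cxcr4 and Nes) and 2 lower (Ly6a and Sprr1a), 21.1% in all, and 1 or 2 were called without any single EV library. Nes kept its call only without WT-labelled DM replicate 1 (adjusted p from 0.0523 to 0.0945 otherwise) and Sprr1a only without WT-labelled GM replicate 1 (0.0517 to 0.14). Cxcr4, the receptor of the chemokine CXCL12, was at 6.08 and 3.92 CPM in knockout-labelled DM and 0.883 and 0.902 CPM in knockout-labelled GM, against 0.164 and 0.217 CPM in WT-labelled DM and 0.501 and 1.05 CPM in WT-labelled GM. The Cxcr4 difference was 4.49 ± 0.63 (adjusted p = 0.00678). The other genes of this paragraph belong to the 40 genes and were picked after their values were seen. Epha1, an ephrin receptor, was at 29.5 and 26.5 CPM in knockout-labelled DM and between 2.81 and 3.44 CPM in all other EV libraries, a difference of 3.20 ± 0.41 (adjusted p = 0.00473). Mcf2l, a guanine nucleotide exchange factor, was at 25.9 and 20.5 CPM in knockout-labelled DM and 12 and 12.3 CPM in knockout-labelled GM, against 2.37 and 2.58 CPM in WT-labelled DM and 10.3 and 12 CPM in WT-labelled GM. The Mcf2l difference was 3.11 ± 0.27 (adjusted p = 0.000956). For Mcf2l the labels overlapped in GM, and in DM both knockout-labelled libraries stood above both WT-labelled ones. Cd44, the hyaluronan receptor, was at 1087 and 957 CPM in knockout-labelled DM and 530 and 527 CPM in knockout-labelled GM, against 189 and 168 CPM in WT-labelled DM and 423 and 328 CPM in WT-labelled GM. The Cd44 difference was 2.03 ± 0.23 (adjusted p = 0.00302). Myh10, nonmuscle myosin IIB, had a difference of 1.45 ± 0.19 (adjusted p = 0.00473), with 358 and 363 CPM in knockout-labelled DM and 284 and 266 CPM in knockout-labelled GM, against 61.0 and 55.5 CPM in WT-labelled DM and 120 and 124 CPM in WT-labelled GM.

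Signalling and matrix lists held 1 to 4 calls each, all higher, against 1.66% higher and 2.58% called of all genes. Of 33 genes of TGF-beta and BMP signalling, 2 were higher (6.06%, Inhbb and Ltbp3). Of 34 of the basement membrane and integrins 4 were (11.8%, Hspg2, Itgb1bp2, Sgca and Col4a2). Of 38 of interstitial collagens and matrix 1 was (2.63%, Tnc), near the share of all genes, and of 25 Wnt genes 1 (4%, Lrp6). Without single EV libraries these lists held 0 to 2 calls, and with the replicate as a block 4, 9, 9 and 3. Ltbp3 and Lrp6 kept their calls without WT-labelled GM replicate 1 or WT-labelled DM replicate 1 and lost them without any other EV library (adjusted p from 0.0608 to 0.114 and from 0.0549 to 0.13). Sgca kept its call only without knockout-labelled GM replicate 1 (0.0605 to 0.142 otherwise). Itgb1bp2, Col4a2 and Tnc lost theirs without any 1 EV library (0.0543 to 0.115, 0.0571 to 0.191 and 0.0784 to 0.175). Inhbb, the activin beta B chain, was at 37.7 and 46.3 CPM in knockout-labelled DM and 23.5 and 31.7 CPM in knockout-labelled GM, against 9.77 and 12.6 CPM in WT-labelled DM and 63.8 and 78.7 CPM in WT-labelled GM. The Inhbb difference was 3.27 ± 0.60 (adjusted p = 0.02). Its call was kept without WT-labelled GM replicate 1 and lost without any other EV library (adjusted p from 0.0605 to 0.0786). Hspg2, the heparan sulfate proteoglycan perlecan, had a difference of 1.64 ± 0.33 (adjusted p = 0.0268), likewise kept without WT-labelled GM replicate 1 alone (adjusted p from 0.0724 to 0.112 otherwise). No call was made among 19 Notch genes, 21 inhibitors of myogenesis or 22 genes of the IGF axis and imprinted clusters. None was made among 24 genes of sterol synthesis or 18 of cell cycle exit either. Median differences in this order were 0.50, 0.22, 0.47, 0.35 and 0.26. Calls with the replicate as a block were not counted for these lists. Id3, an inhibitor of E proteins, fell under both labels, with 9.51 and 5.80 CPM in knockout-labelled DM and 22.3 and 86.0 CPM in knockout-labelled GM, against 1.52 and 1.97 CPM in WT-labelled DM and 13.3 and 97.3 CPM in WT-labelled GM. Its GM values followed the replicate number, and its difference was 2.16 ± 1.33 (adjusted p = 0.444). Tubb3, a tubulin of neurons, was at 165 and 118 CPM in knockout-labelled DM and 45.8 and 16.6 CPM in knockout-labelled GM, against 5.67 and 8.67 CPM in WT-labelled DM and 26.7 and 25.5 CPM in WT-labelled GM. The 4 neural markers, 2 of them tested and 1 called (Tubb3), summed to 297 and 228 CPM in knockout-labelled DM and 141 and 307 CPM in knockout-labelled GM, against 17.4 and 29.0 CPM in WT-labelled DM and 168 and 165 CPM in WT-labelled GM. Their part in the result was not tested. The difference of 4.05 ± 0.71 for Tubb3 (adjusted p = 0.0177) was kept without WT-labelled GM replicate 1, knockout-labelled GM replicate 1 or knockout-labelled DM replicate 2 and lost without any other EV library (adjusted p from 0.0526 to 0.0782).

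**Figure D4:**
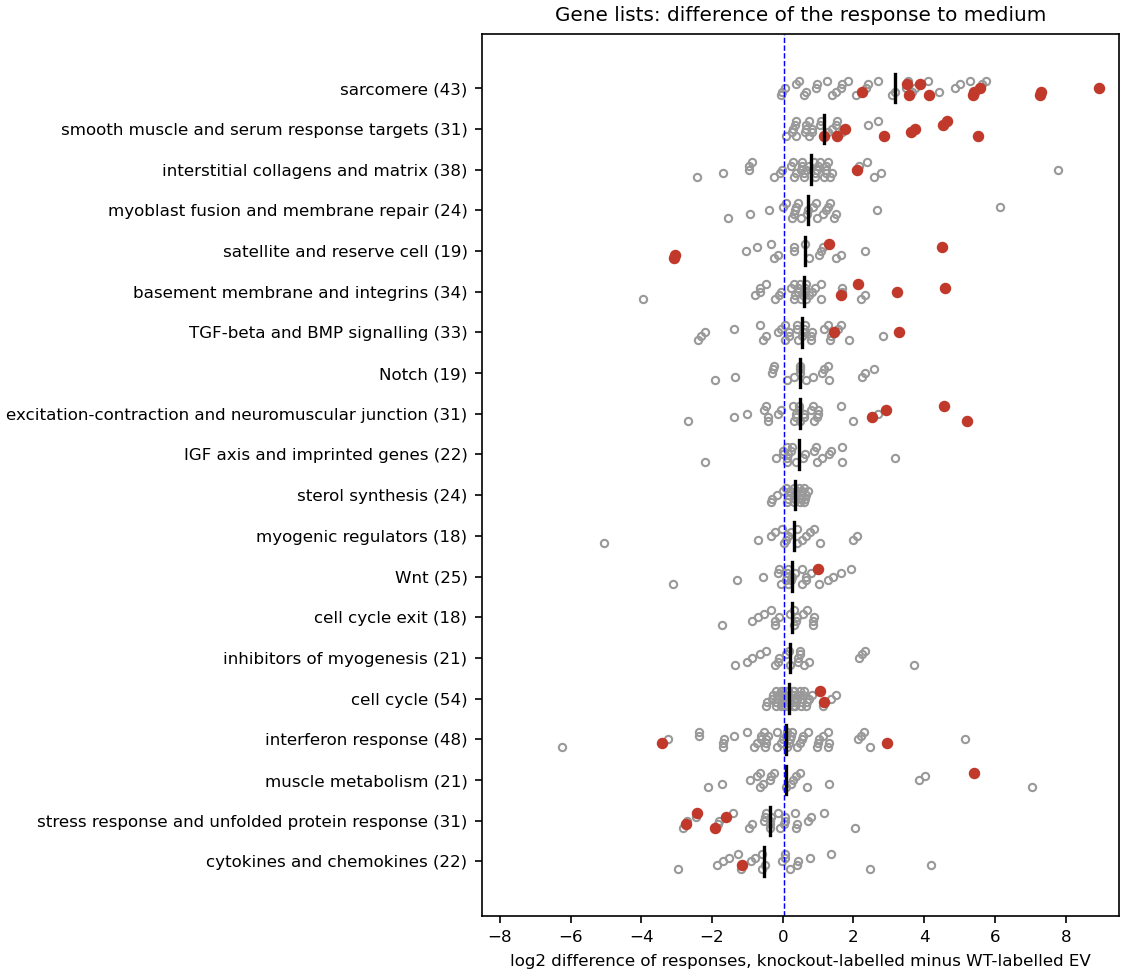
Difference of responses (log2, knockout-labelled minus WT-labelled EV) of each tested member of 20 gene lists, with the number tested in brackets; filled red points passed the test, open grey points did not, black bars are list medians and the dashed blue line is the median of all genes tested (0.02). The sarcomere list lies farthest right (median 3.18) and cytokines and chemokines farthest left (median -0.54).

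Ly6c1, Ly6c2, Slfn2 and Cd53, lower whichever EV library was left out, were highest in WT-labelled DM. Ly6c1, a GPI-anchored surface antigen (chr15:75044018-75048920), was at 46.4 and 35.1 CPM in knockout-labelled DM libraries and 20.3 and 17.4 CPM in knockout-labelled GM libraries, against 706 and 750 CPM in WT-labelled DM libraries and 16.5 and 18.1 CPM in WT-labelled GM libraries. It rose under both labels (1.11 ± 0.31 in knockout-labelled and 5.40 ± 0.36 in WT-labelled cells), a difference of -4.28 ± 0.45 (adjusted p = 0.00163). Its near-identical neighbour Ly6c2 was at 4.97 and 2.91 CPM in knockout-labelled DM and 1.39 and 1.23 CPM in knockout-labelled GM, against 72.0 and 65.0 CPM in WT-labelled DM and 1.20 CPM in both WT-labelled GM libraries, and kallisto may have divided fragments between the pair. Slfn2, a Schlafen family gene induced by interferon (chr11:83065112-83070678), was at 0.748 and 0.535 CPM in knockout-labelled DM and 0.294 and 0.251 CPM in knockout-labelled GM, against 114 and 49.2 CPM in WT-labelled DM and 0.663 and 0.420 CPM in WT-labelled GM. The Slfn2 difference was -5.99 ± 0.72 (adjusted p = 0.00353). Cd53, a tetraspanin of leukocytes, was at 0.671 and 0.357 CPM in knockout-labelled DM and 0.616 and 2.38 CPM in knockout-labelled GM, against 21.9 and 19.3 CPM in WT-labelled DM and 0.582 and 0.496 CPM in WT-labelled GM. The Cd53 difference was -6.80 ± 0.91 (adjusted p = 0.00512). The 8 leukocyte markers, 4 of them tested and 1 called (Cd53), summed to 1.61 and 1.21 CPM in knockout-labelled DM and 1.90 and 5.04 CPM in knockout-labelled GM, against 23.3 and 21.5 CPM in WT-labelled DM and 2.02 and 3.18 CPM in WT-labelled GM. In WT-labelled DM the defining leukocyte markers Ptprc (0.0658 and 0.0814 CPM) and Tyrobp (0.0439 and 0.0136 CPM) were near 0. Ly6a, the stem cell antigen Sca-1, was at 260 and 133 CPM in knockout-labelled DM and 51.9 and 39.6 CPM in knockout-labelled GM, against 2009 and 1984 CPM in WT-labelled DM and 59.2 and 54.4 CPM in WT-labelled GM. Its difference of -3.03 ± 0.63 (adjusted p = 0.0324) was lost without any 1 of the 8 EV libraries (adjusted p from 0.0583 to 0.14).

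The interferon response rose under both labels, and 2 of its genes were called. All 48 genes of the list rose in DM under both labels. Of all genes 23.5% did so in knockout-labelled and 19.2% in WT-labelled cells. The list's median response was 6.61 in knockout-labelled and 7.17 in WT-labelled cells. In the list 1 gene was higher and 1 lower (4.17%, against 2.58% of all genes), or 2 higher and 3 lower with the replicate as a block. The count of 2 was 3 without knockout-labelled GM replicate 1, 2 without WT-labelled DM replicate 1, 1 without knockout-labelled DM replicate 2 and 0 without any other EV library. The lower gene was Mx1 (chr16:97447035-97462906), of a family of antiviral GTPases and annotated as a transcribed pseudogene in GRCm38.p6, with 6.44 and 9.04 CPM in knockout-labelled DM and 0.187 and 0.376 CPM in knockout-labelled GM, against 75.1 and 92.2 CPM in WT-labelled DM and 0.259 and 0.324 CPM in WT-labelled GM. Its difference of -3.40 ± 0.62 (adjusted p = 0.02) was kept without WT-labelled DM replicate 1, knockout-labelled GM replicate 1 or knockout-labelled DM replicate 2 and lost without any other EV library (adjusted p from 0.0631 to 0.18). The higher gene was Ifit1, which binds foreign RNA, with 838 and 1322 CPM in knockout-labelled DM and 4.58 and 1.5 CPM in knockout-labelled GM, against 979 and 1055 CPM in WT-labelled DM and 28.1 and 16.1 CPM in WT-labelled GM. The labels overlapped in DM for Ifit1 and stood apart in GM, and its difference of 2.95 ± 0.69 (adjusted p = 0.0487) was kept without knockout-labelled GM replicate 1 and lost without any other EV library (adjusted p from 0.0843 to 0.166). Dhx58, a sensor of viral RNA, and Irf7, the master factor of type I interferon, had differences of -0.16 ± 0.27 (adjusted p = 0.824) and -0.60 ± 0.61 (adjusted p = 0.678). Among the 40 genes, chosen after their values were seen, the antigen-presenting molecule H2-Q4 and the ADP-ribosyltransferase Parp11 rose less in knockout-labelled cells. H2-Q4 was at 14.3 and 10.7 CPM in knockout-labelled DM and 2.94 and 2.16 CPM in knockout-labelled GM, against 105 and 114 CPM in WT-labelled DM and 6.5 and 6.69 CPM in WT-labelled GM. The H2-Q4 difference was -1.76 ± 0.26 (adjusted p = 0.00893), and it has close paralogs in its gene cluster. Parp11 was at 19.4 and 19.7 CPM in knockout-labelled DM and 6.00 and 4.69 CPM in knockout-labelled GM, against 81.5 and 77.0 CPM in WT-labelled DM and 5.14 and 3.97 CPM in WT-labelled GM. The Parp11 difference was -2.25 ± 0.29 (adjusted p = 0.00473).

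Of 22 cytokine and chemokine genes, 1 was lower (4.55%, or 1 higher and 2 lower with the replicate as a block), against 2.58% of all genes called. This was Mif, the macrophage migration inhibitory factor, at 178 and 215 CPM in knockout-labelled DM and 377 and 390 CPM in knockout-labelled GM. WT-labelled cells had 299 and 393 CPM in DM and 327 and 278 CPM in GM (difference -1.16 ± 0.23, adjusted p = 0.0258). The call of Mif was lost without replicate 2 of any group or knockout-labelled DM replicate 1 (5 of the 8 EV libraries, adjusted p from 0.0591 to 0.123).

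Stress genes held lower calls. Of 31 genes of the stress and unfolded protein response, 4 were lower and none higher (12.9%). Among all genes 0.922% were lower and 2.58% called. The list's median difference was -0.36, and 10 were lower with the replicate as a block. Of the 4, Ddit3 alone belongs to the 40 genes. The list held 8 calls without WT-labelled DM replicate 1, 2 without knockout-labelled GM replicate 2 and 1 without any other EV library. Ddit3, the stress-induced transcription factor CHOP (chr10:127290793-127296291), was at 48.1 and 45.4 CPM in knockout-labelled DM libraries and 29.4 and 43.1 CPM in knockout-labelled GM libraries, against 182 and 248 CPM in WT-labelled DM libraries and 24.8 CPM in both WT-labelled GM libraries. It rose in WT-labelled cells (3.11 ± 0.25), its response in knockout-labelled cells was 0.37 ± 0.23 (adjusted p = 0.22), and the difference was -2.75 ± 0.33 (adjusted p = 0.00353). Chac1, a glutathione-degrading enzyme downstream of ATF4 and CHOP, was at 11.0 and 15.6 CPM in knockout-labelled DM and 19.5 and 28.8 CPM in knockout-labelled GM, against 73.0 and 134 CPM in WT-labelled DM and 35.8 and 34.8 CPM in WT-labelled GM. The Chac1 difference was -2.41 ± 0.56 (adjusted p = 0.0474). Hmox1, haem oxygenase, was at 24.6 and 30.3 CPM in knockout-labelled DM and 84.0 and 66.7 CPM in knockout-labelled GM, against 73.3 and 123 CPM in WT-labelled DM and 70.0 and 109 CPM in WT-labelled GM. The Hmox1 difference was -1.59 ± 0.36 (adjusted p = 0.0452). Both calls were kept without WT-labelled DM replicate 1 and lost without any other EV library (adjusted p from 0.0521 to 0.18 for Chac1 and from 0.0579 to 0.173 for Hmox1). Atf5, a stress-induced transcription factor, had a difference of -1.91 ± 0.42 (adjusted p = 0.0402) that was kept without knockout-labelled GM replicate 2 and lost without any other EV library (adjusted p from 0.061 to 0.172). Klf10, a Krüppel-like factor induced by TGF-beta, and Ifrd1, a transcriptional coregulator, belong to the 40 genes and were picked after their values were seen. Klf10 was at 10.6 and 8.36 CPM in knockout-labelled DM and 21.4 and 29.7 CPM in knockout-labelled GM, against 59.0 and 56.5 CPM in WT-labelled DM and 26.4 and 27.8 CPM in WT-labelled GM. The Klf10 difference was -2.52 ± 0.31 (adjusted p = 0.00404). Ifrd1 fell in knockout-labelled cells (-2.43 ± 0.21), with 38.8 and 31.9 CPM in knockout-labelled DM and 164 and 217 CPM in knockout-labelled GM, against 120 and 142 CPM in WT-labelled DM and 193 and 139 CPM in WT-labelled GM. The Ifrd1 difference was -2.08 ± 0.29 (adjusted p = 0.00602).

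Igf2bp2, an RNA-binding protein that promotes proliferation of myoblasts (chr16:22059009-22163299), is also of the 40 genes, and its levels parted more in GM than in DM. It was at 35.8 and 36.0 CPM in knockout-labelled DM and 28.5 and 35.7 CPM in knockout-labelled GM, against 21.6 and 14.1 CPM in WT-labelled DM and 1.70 and 1.24 CPM in WT-labelled GM. WT-labelled GM libraries were the lowest by far, the response was 0.16 ± 0.23 in knockout-labelled and 3.59 ± 0.26 in WT-labelled cells, and the difference was -3.43 ± 0.34 (adjusted p = 0.00135). Prl2c2, proliferin, a placental hormone of a gene family with near-identical copies, was at 3.62 and 3.53 CPM in knockout-labelled DM and 158 and 851 CPM in knockout-labelled GM, against 21.3 and 65.7 CPM in WT-labelled DM and 34.3 and 95.7 CPM in WT-labelled GM. Its difference of -6.56 ± 1.51 (adjusted p = 0.0464) was kept without WT-labelled DM replicate 1 or knockout-labelled GM replicate 1 and lost without any other EV library (adjusted p from 0.13 to 0.185).

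Cell cycle genes fell under both labels, and the share called was near the 2.58% of all genes. Of 54 tested, 52 fell in knockout-labelled cells (19.7% of all genes did) and 53 in WT-labelled cells (18.3%), and 2 were called, both higher (3.7%; 4 with the replicate as a block), with a median difference of 0.18. Rrm1, the large subunit of ribonucleotide reductase, was at 242 and 224 CPM in knockout-labelled DM and 408 and 443 CPM in knockout-labelled GM, against 107 and 118 CPM in WT-labelled DM and 434 and 412 CPM in WT-labelled GM. Its response was -0.87 ± 0.13 in knockout-labelled and -1.91 ± 0.14 in WT-labelled cells, a difference of 1.04 ± 0.19 (adjusted p = 0.0193). Cdc6, a loader of the replicative helicase, fell by 1.56 ± 0.19 and 2.71 ± 0.20 on the log2 scale in knockout-labelled and WT-labelled cells, a difference of 1.15 ± 0.26 (adjusted p = 0.045). The call of Rrm1 was lost without any 1 of the 8 EV libraries (adjusted p from 0.0586 to 0.109), and that of Cdc6 was kept without knockout-labelled DM replicate 2 and lost without any other (adjusted p from 0.102 to 0.203). Mki67, the proliferation antigen, and Ccnb1, cyclin B1, had differences of 0.60 ± 0.30 (adjusted p = 0.335) and -0.03 ± 0.28 (adjusted p = 0.982), and Cdkn1a, the inhibitor p21, one of 0.22 ± 0.29 (adjusted p = 0.77).

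The same difference of responses was measured in the MUNC lines, to show where the EV lines stood apart. Their libraries share no sample with the EV lines, but both differences came from 1 fit. Each gene thus had the same estimated spread in both tests, so calls made in both are not independent. Within the MUNC lines the labels also differed in MUNC itself. Gm45923 was at 43.0 and 50.4 CPM in knockout-labelled MUNC DM and 132 and 106 CPM in knockout-labelled MUNC GM, against 2012 and 2670 CPM in WT-labelled MUNC DM and 1821 and 2225 CPM in WT-labelled MUNC GM. The genotype label and the level of MUNC thus cannot be told apart there, nor in the test of EV against MUNC lines below. Myod1 was at 16 and 15 CPM in knockout-labelled MUNC DM and 8.17 and 4.18 CPM in knockout-labelled MUNC GM, against 3.18 and 1.70 CPM in WT-labelled MUNC DM and 3.72 and 4.06 CPM in WT-labelled MUNC GM. In the MUNC lines 206 genes passed (1.38%), 185 higher and 21 lower, and 388 passed with the replicate as a block. Of the 249 genes higher in the EV lines, 218 had a positive difference in the MUNC lines (50.4% of all genes did), 47 passed the same way and 1 the opposite way (Prg4, named after its values were seen), and their median was 1.59 in the EV lines and 0.68 in the MUNC lines. Of the 138 lower genes, 79 had a negative difference in the MUNC lines (49.6% of all genes did), 2 passed the same way (Shc2 and Sybu, likewise named after their values were seen) and 4 the opposite way (Gm7609, H2-Q4, Il18bp and Mx1), and their median was -1.71 in the EV lines and -0.11 in the MUNC lines. Both sets were chosen by their EV difference, so part of the gap between these medians comes from that choice. Of the opposite calls, Mx1 was lost without WT-labelled MUNC DM replicate 2 (adjusted p = 0.0542), Il18bp without either WT-labelled MUNC DM library or knockout-labelled MUNC DM replicate 2 (0.0554 to 0.0699). Prg4 was lost without either WT-labelled MUNC DM library or WT-labelled MUNC GM replicate 1 (0.06 to 0.0686). H2-Q4 kept its MUNC call without WT-labelled MUNC GM replicate 2 or knockout-labelled MUNC GM replicate 1 and lost it without any other MUNC library (0.0629 to 0.103). Gm7609 kept it only without replicate 2 of either MUNC GM group (0.0522 to 0.244 otherwise). Shc2 was lost without WT-labelled MUNC GM replicate 1 or WT-labelled MUNC DM replicate 2 (0.0541 and 0.0662). The 49 calls with the same direction were 12.7% of the EV list and 23.8% of the MUNC list. The MUNC count was 279 without knockout-labelled MUNC GM replicate 1. It was 118 without knockout-labelled MUNC GM replicate 2, 127 without knockout-labelled MUNC DM replicate 1 and 84 without knockout-labelled MUNC DM replicate 2. It was 97 without WT-labelled MUNC GM replicate 1, 112 without WT-labelled MUNC GM replicate 2, 62 without WT-labelled MUNC DM replicate 1 and 59 without WT-labelled MUNC DM replicate 2.

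Calls of 6 genes (Arhgap26, Kcnma1, Mcf2l, Myl4, Pygm and Siglecg) passed without each EV library in the EV lines and without each MUNC library in the MUNC lines. The difference for Pygm was 5.40 ± 0.49 in the EV lines and 3.16 ± 0.44 in the MUNC lines (adjusted p = 0.00672). It was at 9.05 and 8.98 CPM in knockout-labelled MUNC DM libraries and 0.473 and 0.548 CPM in knockout-labelled MUNC GM libraries, against 1.18 and 0.631 CPM in WT-labelled MUNC DM libraries and 0.412 and 0.488 CPM in WT-labelled MUNC GM libraries. For Myl4 the differences were 3.87 ± 0.39 and 2.89 ± 0.38 in the EV and MUNC lines (adjusted p = 0.00422 in the MUNC lines), and for Mcf2l 3.11 ± 0.27 and 1.86 ± 0.26 (adjusted p = 0.00672). Kcnma1, a calcium-activated potassium channel picked after its values were seen, had differences of 4.49 ± 0.64 and 3.58 ± 0.51 (adjusted p = 0.00743). None of Pygm, Myl4, Mcf2l and Kcnma1 passed the test of EV against MUNC lines itself (adjusted p = 0.23, 0.574, 0.237 and 0.798), which does not show that the lines respond alike.

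That test of the difference between EV and MUNC lines passed for 76 of 14972 genes (0.508%), 19 higher in the EV lines and 57 lower, and for 169 with the replicate as a block. Among the 387 called genes it passed for 14 of the higher and 18 of the lower ones. The test contains the EV difference by which the 387 were chosen, so that choice favours these counts, which describe the calls only. The same holds for genes below that passed both tests. The count of 76 was 28 without knockout-labelled EV DM replicate 2 and 46 without knockout-labelled EV DM replicate 1. It was 42 without knockout-labelled EV GM replicate 1, 33 without WT-labelled EV GM replicate 2, 44 without knockout-labelled MUNC DM replicate 2 and 30 without WT-labelled MUNC GM replicate 1. It was 51 when the WT-labelled MUNC GM replicate 2 library was left out, 38 without WT-labelled MUNC DM replicate 1 and 34 without WT-labelled MUNC DM replicate 2, and between 53 and 93 without any other library. A set of 7 genes passed both the test in the EV lines and this test whichever library was left out (C3ar1, Chst15, H2-Q4, Igf2bp2, Ly6c1, Parp11 and Rflnb). Igf2bp2 was at 43.0 and 52.9 CPM in knockout-labelled MUNC DM and 36.8 and 49.0 CPM in knockout-labelled MUNC GM, against 58.7 and 53.8 CPM in WT-labelled MUNC DM and 50.9 and 60.7 CPM in WT-labelled MUNC GM, so that the low level of WT-labelled EV GM libraries had no counterpart in the MUNC lines. Its difference was -3.43 ± 0.34 in the EV lines and 0.15 ± 0.32 in the MUNC lines, and these differed by -3.58 ± 0.46 (adjusted p = 0.00725). Ly6c1 was at 45.3 and 57.2 CPM in knockout-labelled MUNC DM and 18.3 and 10.4 CPM in knockout-labelled MUNC GM, against 25.5 and 49.0 CPM in WT-labelled MUNC DM and 16.1 and 15.2 CPM in WT-labelled MUNC GM, and the EV and MUNC differences lay -4.87 ± 0.62 apart (adjusted p = 0.00681). Mx1 turned round, with a difference of -3.40 ± 0.62 in the EV lines and 4.11 ± 0.60 in the MUNC lines, where it was at 3.94 and 7.86 CPM in knockout-labelled DM and 0.321 and 0.402 CPM in knockout-labelled GM, against 0.373 and 0.230 CPM in WT-labelled DM and 0.269 and 0.343 CPM in WT-labelled GM. The change of -7.52 ± 0.87 between the line sets passed (adjusted p = 0.00647) whichever library was left out. Chst15, a chondroitin sulfotransferase, and Rflnb, a filamin regulator, picked after their values were seen, went the other way. Chst15 was at 9.85 and 8.31 CPM in knockout-labelled MUNC DM and 1.54 and 1.44 CPM in knockout-labelled MUNC GM, against 63.3 and 60.3 CPM in WT-labelled MUNC DM and 8.08 and 8.52 CPM in WT-labelled MUNC GM, and its difference was 3.03 ± 0.28 in the EV lines and -0.29 ± 0.28 in the MUNC lines (3.33 ± 0.39 apart, adjusted p = 0.00647). Rflnb had differences of 2.34 ± 0.22 in the EV lines and -0.73 ± 0.21 in the MUNC lines (3.06 ± 0.31 apart, adjusted p = 0.00469).

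**Figure D5:**
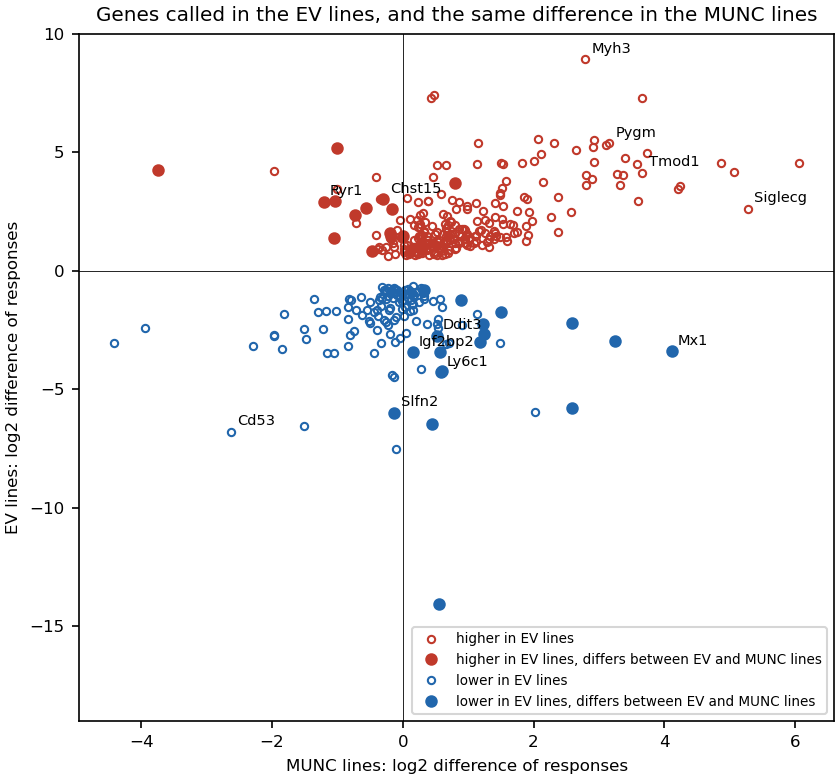
Difference of responses (log2, knockout-labelled minus WT-labelled) in the EV lines (vertical axis) against the same in the MUNC lines (horizontal axis) for the 387 genes called in the EV lines, red for higher and blue for lower; filled points mark the 32 genes that also passed the test of EV against MUNC lines. Of the 249 higher genes 218 lie right of 0, and of the 138 lower genes 79 lie left of 0.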

How the data were processed

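The deposited files give, for each of 16 libraries, kallisto's estimated counts and TPM per transcript, made by the authors with bcl2fastq and kallisto and with mm10 named as the build, per the submitters' processing notes. Versions and the strand setting of kallisto are not given in the sources used. Estimated counts (expected counts) as the authors deposited them were summed per gene and rounded to whole numbers. Of 35818 transcripts, 35492 matched RefSeq for GRCm38.p6 and 188 GENCODE M21, and 138 without a symbol (0.28% to 0.941% of counts) were left out. The deposited TPM values entered 1 alternative only. Genes passing filterByExpr (14972) were fitted with edgeR 4.0.16 (R 4.3.3; quasi-likelihood, TMM, all 16 libraries, 8 groups, 8 residual degrees of freedom, dispersion 0.0474), the SE being the log2 difference over the square root of F. With 35.8 M to 83.9 M counts per EV library, precision was set by the spread between 2 libraries a group rather than by depth. Replicates correlated at 0.978 to 0.992 and differed beyond sampling noise. The fit had no replicate term. Deviations of same-numbered EV libraries correlated at 0.232 to 0.508 in all 6 pairs of groups. The numbers were thus read as pairing the libraries, from the data alone since the labels name no shared batch. The count with the replicate as a block is given where it moves by over 1.5 times. It was not taken for lists without a call, which may hold calls with the block. The code was tested on simulated data.

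Named genes were a panel, the 12 largest differences each way at a mean of at least 5 CPM with the same sign in both replicates, up to 4 called members per gene list by smallest adjusted p and up to 4 per response class by largest difference. Genes from outside this rule are said to be picked after their values were seen. Single members of the marker lists, such as Pdgfra, Lum, Mylk and Myh11, were also picked in this way. The members and lists were chosen with earlier results of these data known. Alternatives were DESeq2 1.42.0, its size factors in edgeR, other filters, limma 3.58.1 on log2(TPM + 1), a threshold of 0.01, a replicate block, the 8 EV libraries alone and each library left out. The promoter set used lacked part of the genes tested, among them Tagln, Actg2 and Mx1, and these were left out of the motif search.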

Additional observations from a re-analysis of the deposited data

Results flagged for a closer look

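The difference of medium responses between EV cells with the knockout label and those with the WT label was itself tested and passed for 387 genes, and this difference changed between EV and MUNC lines for 76 genes. Among the genes named, the change from MUNC to EV lines was -7.52 for Mx1, -6.93 for Serpinb9g, a serine protease inhibitor with near-identical copies, -6.90 for Irf7, -5.86 for Slfn2, -5.07 for Dhx58, -4.87 for Ly6c1, -4.85 for Ly6c2, -4.20 for the complement factor Cfb, -3.58 for Igf2bp2, -3.27 for Ddit3 and 4.13 for Ryr1, on the log2 scale. These changes passed whichever of the 16 libraries was left out for Mx1, Irf7, Dhx58, Ly6c1 and Igf2bp2.

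The others lost the call without some libraries. Ddit3 lost its call without knockout-labelled EV DM replicate 2 (adjusted p = 0.0502), Ly6c2 without 6 of the 16 libraries (adjusted p from 0.0551 to 0.0766), Slfn2 without 11 (0.0511 to 0.273), Ryr1 without 13 (0.0529 to 0.119), Serpinb9g without 14 (0.0537 to 0.127) and Cfb without 14 (0.0532 to 0.133). For Irf7 the difference between labels was -0.60 ± 0.61 in the EV lines and 6.30 ± 0.62 in the MUNC lines. Irf7 was at 134 and 185 CPM in knockout-labelled MUNC DM and 0.550 and 0.675 CPM in knockout-labelled MUNC GM, against 2.16 and 1.68 CPM in WT-labelled MUNC DM and 0.776 and 0.361 CPM in WT-labelled MUNC GM. For Dhx58 it was -0.16 ± 0.27 in the EV lines and 4.91 ± 0.28 in the MUNC lines. Each group had 2 libraries, too few for a look at outlying samples.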

How the results depend on the processing

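With other settings the 387 calls in the EV lines became 980 with DESeq2, 1046 with limma on log2(TPM + 1), 56 at an adjusted p of 0.01 and 160 with the 8 EV libraries alone, which kept 148 of the 387. With single libraries left out the count lay between 57 and 333. DESeq2 size factors (383), no filter (359) and 2 filters at 5 CPM (385 and 382) stayed within 1.5 times. With the replicate as a block 898 genes passed in the EV lines, 388 in the MUNC lines and 169 for EV against MUNC lines, and no named gene's call in the EV lines changed. The 206 calls of the MUNC lines became 497 with DESeq2, 563 with limma and 61 at 0.01, and lay between 59 and 279 with single libraries left out. The 76 of EV against MUNC lines became 318, 337 and 20, and lay between 28 and 93. The 6470 genes of the knockout-labelled response became 4253 at 0.01 and 4290 to 5841 with single libraries left out, and the 5619 of the WT-labelled response 3523 and 3833 to 4684. Of 945 combinations of a called named gene and a setting, 630 kept the call, 315 lost it and 0 reversed it. Mymk, not called, had a fitted difference of 3.89 with limma on log2(TPM + 1) (adjusted p = 0.00117), against -1.54. Having 2 libraries a group limits these results more than depth, and genes near 0 in a group, such as Mymk and Mymx, have fold responses that rest on a few counts. The cause of the changes was not tested.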
